A study of Homo sapiens with 4 samples.

Results

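TGF-beta (transforming growth factor beta) signalling was followed in A549 xenografts through 10 genes: the ligands TGFB1, TGFB2 and TGFB3, the activin subunit INHBA, the latent TGF-beta binding protein LTBP2, the receptors TGFBR1 and TGFBR2, the signal transducer SMAD3, the inhibitor SMAD7 and the secreted matrix protein TGFBI. These genes were chosen by name for their roles in the pathway, out of 38137 genes in the deposited counts. Earlier results of these data were known when the genes and the lists below were chosen. All 10 had a mean of at least 20 reads over the 4 libraries, the minimum that 19393 genes reached. A549 is a human non-small cell lung cancer (NSCLC) line, and the tumors were grown under the skin of the flank in 6-week-old male BALB/c athymic nude mice, which lack T cells but keep other host cells such as macrophages. The combination group ran on a treadmill at 8 m/min for 30 min and then received 2 Gy of X-rays to the tumor on the same day, 3 times per week for 2 weeks. The radiation-alone group received the same irradiation, 12 Gy in all, the aerobic exercise group ran on the same schedule, and the control group had neither. Each group had 5 mice and is represented here by 1 library, and whether a library held 1 tumor or a pool is not given in the sources used here.

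Because no group had a replicate library, every difference below is a ratio between 2 libraries with no test. Its 95% interval (exact Clopper-Pearson) covers counting error only, and reads of a PCR-amplified library are not independent molecules. Levels are CPM, the read count relative to the TMM-scaled library size, and a gene was called at a 2-fold difference. Reads assigned to genes totalled 33432637 to 35408705 per library, and the 95% counting interval of 0 reads ended at 0.103 to 0.113 CPM. Summed markers of A549 and epithelial cells lay between 14840 and 15788 CPM, with 10 of 10 markers above the minimum. Fibroblast markers (11 of 12 above the minimum) summed to 255 CPM in the combination library, 295 CPM with radiation alone, 408 CPM with exercise alone and 408 CPM in control. COL1A1 and COL1A2 were the largest parts of each sum. ACTA2 went the other way, with 47.0 CPM in the combination, 42.5 CPM with radiation alone, 29.4 CPM with exercise alone and 35.9 CPM in control. FAP did not separate irradiated from unirradiated libraries. Of 12 macrophage and neutrophil markers, 5 passed the minimum, and TYROBP and S100A8 had 0 reads in every library. The sums of this list were 495 CPM in the combination, 431 CPM with radiation alone, 364 CPM with exercise alone and 373 CPM in control. CSF1R gave 239 to 278 CPM of each sum. CSF1R and ITGAM were lower in both irradiated libraries, while CD14, CD68 and LYZ were higher there. Of 8 endothelial markers, PECAM1 alone passed the minimum, and it gave 5.53 to 18.3 CPM of each sum. The sums were 7.24 CPM in the combination, 11.5 CPM with radiation alone, 16.7 CPM with exercise alone and 21.1 CPM in control, lower in both irradiated libraries. Skeletal muscle markers summed to 69.3 CPM in the combination library, 65.0 CPM with radiation alone, 30.1 CPM with exercise alone and 28.4 CPM in control. The titin gene TTN gave 20.7 to 26.1 CPM of each sum, and some other muscle markers stood much further apart. The myosin gene MYH4 had 417 reads in the combination, 485 with radiation alone, 25 with exercise alone and 1 in control. TNNT1 (61, 49, 112 and 107 reads, in the same order) and MB (52, 37, 58 and 70) were instead lower in both irradiated libraries. The part of these cell types in the ratios below was not tested. The tumors were measured in bulk, so fewer cells of a type and less RNA per cell cannot be told apart, and reads of the mouse host enter only where they match a human gene.

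TGF-beta ligands are secreted as latent dimers that are held in the extracellular matrix by latent TGF-beta binding proteins and released by integrins or proteases. An active ligand brings together the type II receptor TGFBR2 and the type I receptor TGFBR1, which phosphorylates SMAD2 and SMAD3. These bind SMAD4, enter the nucleus and act on target genes that include the matrix protein gene TGFBI and the inhibitor SMAD7, which closes a negative feedback loop. In lung epithelial tumors the pathway is known for growth arrest at early stages and for matrix production and cell motility at later ones.

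The sequence before the start site was read for all 10 genes from the RefSeq promoter table (GRCh38.p14), as windows of 250 bases upstream and 50 bases downstream of 1 start site per gene. The core SMAD-binding element CAGAC, searched on both strands, was found in 7 of 10 windows (TGFB2, TGFB3, TGFBR1, INHBA, LTBP2, SMAD3 and SMAD7), against 45% of 27305 windows of all genes. The GC box GGGCGG was found in 4 of 10 (TGFB1, TGFBI, LTBP2 and SMAD3), against 44.6% of all windows. TATAAA was found in 2 of 10 (TGFB2 and INHBA), against 12%, and the AP-1 element TGACTCA in 0 of 10, against 4.92%. A match is only a description of letters, and no binding was measured. The stretches before the start sites of 4 genes are shown: INHBA, which had the largest ratio between libraries, TGFB3, the ligand with the same order of libraries, TGFBR2, with the opposite order, and TGFB1, whose level was highest in the combination. Capitals mark matches to the motifs above on either strand (GTCTG and CCGCCC are the reverse complements of CAGAC and GGGCGG).
INHBA, chr7:41703109-41703340, minus strand, ending 18 bases before the start site used: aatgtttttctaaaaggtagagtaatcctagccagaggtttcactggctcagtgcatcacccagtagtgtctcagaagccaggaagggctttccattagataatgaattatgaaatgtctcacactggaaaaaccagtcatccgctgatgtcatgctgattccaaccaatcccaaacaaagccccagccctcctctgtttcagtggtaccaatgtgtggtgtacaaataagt
TGFB3, chr14:75983012-75983261, minus strand: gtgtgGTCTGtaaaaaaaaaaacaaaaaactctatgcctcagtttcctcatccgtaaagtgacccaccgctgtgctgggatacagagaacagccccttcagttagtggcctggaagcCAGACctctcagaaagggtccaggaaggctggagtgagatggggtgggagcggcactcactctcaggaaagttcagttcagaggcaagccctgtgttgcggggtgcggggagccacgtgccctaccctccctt
TGFBR2, chr3:30606106-30606355, plus strand: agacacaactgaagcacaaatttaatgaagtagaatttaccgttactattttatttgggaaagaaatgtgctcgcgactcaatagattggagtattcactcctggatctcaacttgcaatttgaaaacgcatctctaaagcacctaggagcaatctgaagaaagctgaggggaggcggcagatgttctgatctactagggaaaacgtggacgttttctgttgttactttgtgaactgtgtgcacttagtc
TGFB1, chr19:41353923-41354168, minus strand: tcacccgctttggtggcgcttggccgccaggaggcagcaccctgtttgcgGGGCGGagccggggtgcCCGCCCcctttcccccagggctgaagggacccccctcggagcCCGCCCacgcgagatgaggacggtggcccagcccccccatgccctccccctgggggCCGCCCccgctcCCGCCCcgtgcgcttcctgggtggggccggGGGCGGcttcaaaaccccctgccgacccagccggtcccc
The TGFB1 stretch held 6 GC boxes and the TGFB3 stretch 2 SMAD elements, while the INHBA and TGFBR2 stretches held none of the 4 motifs. The whole windows were 77.3% GC for TGFB1, 56.0% for TGFB3, 43.3% for INHBA and 42.3% for TGFBR2, against a median of 58.3% over all windows. The INHBA window lies inside the annotated span of the gene, which has a start site farther upstream.

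Per kilobase of exon, the receptors were the most abundant of the 10 transcripts. In control the level was 86.5 CPM per exonic kilobase for TGFBR2, 42.5 for TGFBR1, 29.5 for TGFBI, 26.6 for SMAD3 and 11.9 for TGFB1. The remaining genes were below these, at 5.72 CPM per exonic kilobase for TGFB2, 3.48 for SMAD7, 3.03 for LTBP2, 1.58 for TGFB3 and 1.27 for INHBA. TGFB1 was thus the most abundant ligand transcript and INHBA the scarcest of the set, and low counts made the intervals of TGFB3 and INHBA the widest.

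**Figure D1:**
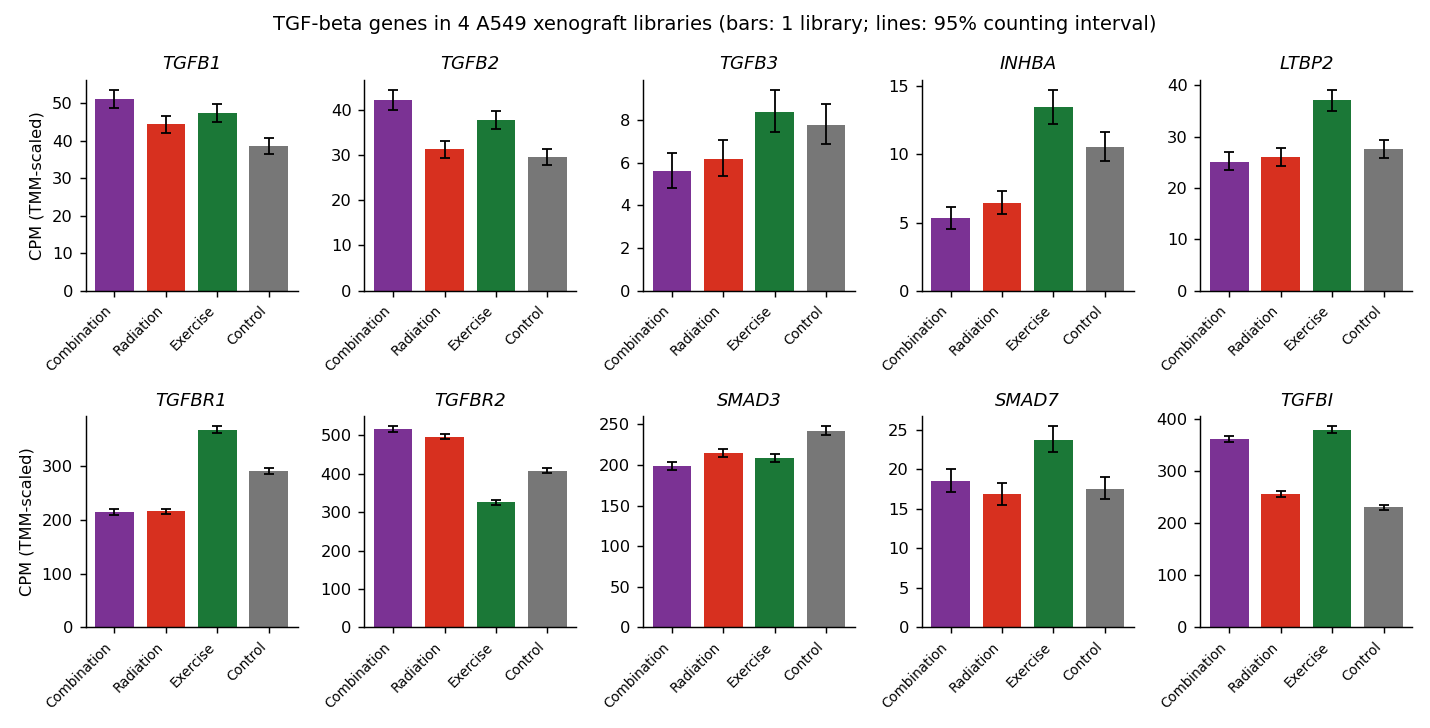
Level of each of the 10 genes (CPM after TMM scaling, vertical axis from 0, scale set for each gene) in the combination, radiation-alone, exercise-alone and control libraries; each bar is 1 library and lines are 95% counting intervals. INHBA stood at 5.31 and 6.44 CPM in the irradiated libraries and at 13.5 and 10.5 CPM in the unirradiated ones, while TGFBR2 was higher in both irradiated libraries.

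TGFB1 and TGFB2 had the same order of libraries, highest in the combination and lowest in control. TGFB1 (GRCh38 chromosome 19, 41330323 to 41353922, minus strand) encodes the main ligand of the family. It had 51.1 CPM in the combination, 44.4 CPM with radiation alone, 47.4 CPM with exercise alone and 38.6 CPM in control. The exercise-alone and radiation-alone libraries differed by less than counting error, and the combination was 1.33-fold over control (1.23 to 1.42). TGFB2 (chromosome 1, 218345336 to 218444619, plus strand), which encodes a ligand that needs the co-receptor TGFBR3 for high-affinity binding, had 42.1 CPM in the combination, 31.2 CPM with radiation alone, 37.7 CPM with exercise alone and 29.5 CPM in control. Here radiation alone and control were not separated by counting error, and the combination was 1.43-fold over control (1.32 to 1.55) and 1.35-fold over radiation alone (1.24 to 1.46). The exercise ratio of TGFB2 was thus of similar size with and without radiation, at log2 0.43 for the combination over radiation alone and 0.35 for exercise alone over control. The transcripts TGFB2-OT1 and TGFB2-AS1 overlap the TGFB2 locus. TGFB2-OT1 had 359 reads in the combination, 264 with radiation alone, 304 with exercise alone and 231 in control, and TGFB2-AS1 had 35 to 54 reads in the 4 libraries. The strand setting of the counting is not given in the sources used here, so reads shared by overlapping genes could not be assigned.

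TGFB3 (chromosome 14, 75958097 to 75983011, minus strand), the least abundant of the TGF-beta ligands per exonic length, was lower in both irradiated libraries. Its level was 5.59 CPM in the combination, 6.18 CPM with radiation alone, 8.39 CPM with exercise alone and 7.76 CPM in control, from 183 to 290 reads. The irradiated libraries were not separated from each other by counting error, nor were the unirradiated ones. The combination was at 0.720 of control (0.594 to 0.871) and at 0.666 of exercise alone (0.550 to 0.804).

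INHBA (chromosome 7, 41685114 to 41705406, minus strand) encodes the beta A subunit of activin A and of inhibin A, and activin A signals through SMAD2 and SMAD3 by its own receptors. It had the largest spread of the 10 genes. Its level was 5.31 CPM in the combination (174 reads), 6.44 CPM with radiation alone (224 reads), 13.5 CPM with exercise alone (465 reads) and 10.5 CPM in control (376 reads). Both irradiated libraries were below both unirradiated ones, and the order was exercise alone, control, radiation alone and combination, with the last pair within counting error. The combination was at 0.395 of exercise alone (0.330 to 0.471), which is 2.53-fold lower and the only 2-fold difference of the 10 genes in any of 5 comparisons. Of all genes compared, 2.95% were at least as far from equality in the combination against exercise alone. Against control the combination was at 0.505 (0.419 to 0.605), just short of 2-fold, and radiation alone at 0.612 (0.516 to 0.724). With exercise alone INHBA was 1.28-fold over control (1.11 to 1.47). The antisense gene INHBA-AS1, which overlaps INHBA, had the same order, with 51 reads in the combination, 70 with radiation alone, 146 with exercise alone and 110 in control. Summed fibroblast and endothelial markers were also lower in both irradiated libraries, although ACTA2 of the fibroblast list was higher there. The part of these cell types, and that of host reads, in the INHBA ratios was not tested.

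LTBP2 (chromosome 14, 74498183 to 74612237, minus strand) encodes a microfibril protein of the LTBP family that, unlike its relatives, is not known to bind latent TGF-beta itself. It had 25.2 CPM in the combination, 26.1 CPM with radiation alone, 37.1 CPM with exercise alone and 27.5 CPM in control. Exercise alone was 1.35-fold over control (1.24 to 1.46), and the other libraries were not separated by counting error from their neighbors in the order. The combination was at 0.679 of exercise alone (0.621 to 0.741).

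The receptor pair ran in opposite directions across the libraries. TGFBR1 (chromosome 9, 99103647 to 99154192, plus strand), the type I receptor kinase, had 214 CPM in the combination, 216 CPM with radiation alone, 367 CPM with exercise alone and 291 CPM in control. TGFBR2 (chromosome 3, 30606356 to 30694142, plus strand), the type II receptor that binds the ligand first, had 515 CPM in the combination, 496 CPM with radiation alone, 325 CPM with exercise alone and 407 CPM in control. TGFBR1 was therefore highest with exercise alone and TGFBR2 lowest there. The combination was at 0.737 of control for TGFBR1 (0.715 to 0.760) and 1.27-fold over control for TGFBR2 (1.24 to 1.29). Against exercise alone the combination was at 0.583 for TGFBR1 (0.567 to 0.601) and 1.58-fold higher for TGFBR2 (1.55 to 1.62). The ratio of TGFBR2 reads to TGFBR1 reads, which needs no scaling between libraries, was 2.40 in the combination (2.34 to 2.47), 2.3 with radiation alone (2.24 to 2.37), 0.885 with exercise alone (0.862 to 0.907) and 1.40 in control (1.36 to 1.44). Transcript lengths differ between the genes, so these ratios are read only across libraries. Their order, combination, radiation alone, control and exercise alone, had no overlap of counting intervals except between the irradiated libraries.

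SMAD3 (chromosome 15, 67065602 to 67195169, plus strand), the transducer that carries the receptor signal to target genes, had the smallest spread. It had 199 CPM in the combination, 215 CPM with radiation alone, 209 CPM with exercise alone and 242 CPM in control. The combination was at 0.820 of control (0.794 to 0.847), and all treated libraries were below control. SMAD7 (chromosome 18, 48919853 to 48950965, minus strand) encodes the inhibitory SMAD that blocks TGFBR1 and recruits ubiquitin ligases to it. It had 18.5 CPM in the combination, 16.8 CPM with radiation alone, 23.7 CPM with exercise alone and 17.5 CPM in control. Exercise alone stood above the rest, at 1.35-fold over control (1.22 to 1.5), and the combination differed from control by less than counting error (1.06, 0.944 to 1.18).

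TGFBI (chromosome 5, 136028988 to 136063818, plus strand) encodes a secreted adhesion protein that binds collagen and integrins and is a long-used readout of TGF-beta signalling. Its level was 362 CPM in the combination, 256 CPM with radiation alone, 380 CPM with exercise alone and 231 CPM in control. Both exercised libraries were above both unexercised ones, and no neighbors in the order lay within counting error. The exercise ratio was 1.64-fold without radiation (1.6 to 1.69) and 1.41-fold with radiation (1.37 to 1.45). Against control the combination was 1.57-fold higher (1.53 to 1.61). Of all genes compared, 4.32% were as far from equality as TGFBI in exercise alone against control, and 1.63% of the 15385 genes with a mean of at least 100 reads.

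**Figure D2:**
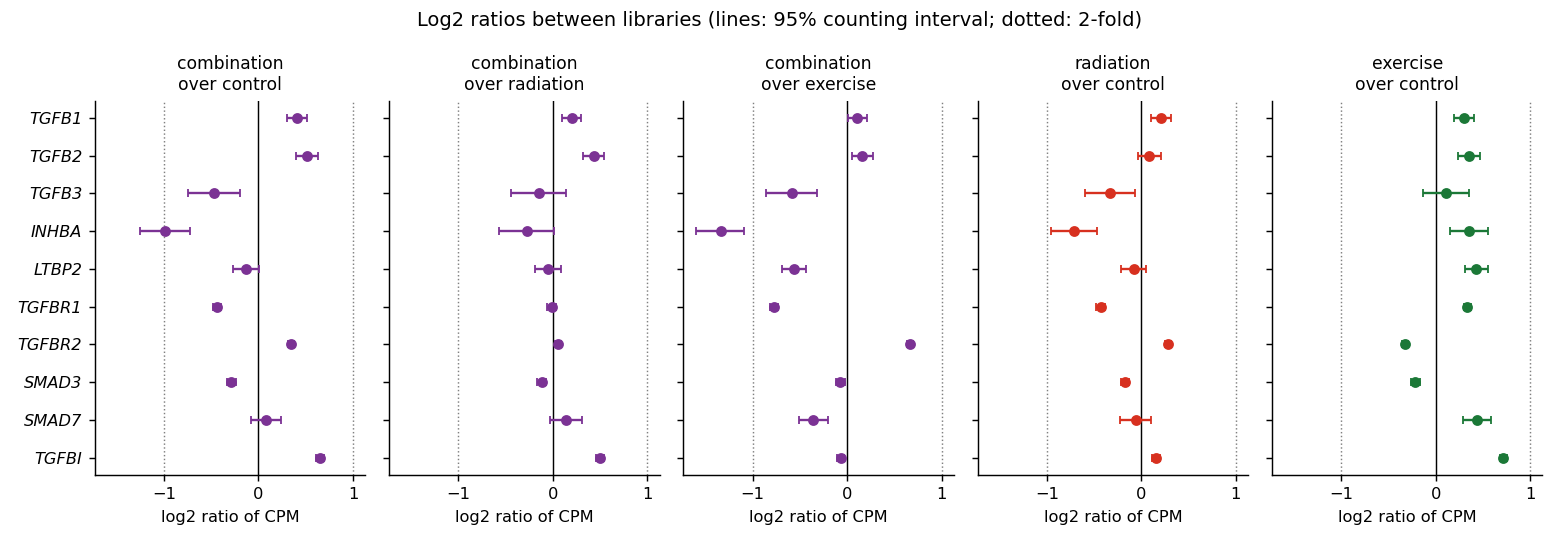
Log2 ratio of CPM (horizontal axis) of the 10 genes in the 5 comparisons of libraries; points are ratios of 1 library to 1 library, lines are 95% counting intervals and dotted lines mark 2-fold. INHBA in the combination over exercise alone, at -1.34, is the only point past 2-fold, and 8 of 10 points lie above 0 for exercise alone over control.

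Counted together, few of the 10 genes differed by 2-fold. Relative to control, the combination had 0 of 10 genes past 2-fold upward (2.27% of all 19393 genes) and 0 of 10 past 2-fold downward (1.75%). In the combination against radiation alone both counts were 0 of 10, with 0.418% of all genes higher and 0.861% lower. In the combination against exercise alone, 0 of 10 were higher (2.92% of all genes) and 1 of 10 was lower (3.06%), namely INHBA. For radiation alone against control the counts were 0 of 10 higher (1.89% of all genes) and 0 of 10 lower (0.897%), and for exercise alone against control 0 of 10 higher (0.83%) and 0 of 10 lower (0.696%). The differences within this set were thus mostly below 2-fold. At 1.5-fold, the combination against control had 1 of 10 higher (TGFBI, beside 6.14% of all genes) and 1 lower (INHBA, beside 6.52%). The combination against radiation alone had 0 higher (2.31% of all genes) and 0 lower (4.24%), and the combination against exercise alone 1 higher (TGFBR2, 7.66%) and 3 lower (TGFB3, INHBA and TGFBR1, 8.32%). Radiation alone against control had 0 higher (5.81%) and 1 lower (INHBA, 4.35%), and exercise alone against control 1 higher (TGFBI, 3.85%) and 0 lower (3.21%). The median log2 ratio of the 10 genes was 0.35 for exercise alone over control, with 8 of 10 above 0, beside a median of 0.00 for all genes, of which 9769 of 19393 were above 0. It was -0.02 for the combination over control (5 of 10 above 0), -0.07 for radiation alone over control (4 of 10), 0.02 for the combination over radiation alone (5 of 10) and -0.21 for the combination over exercise alone (3 of 10). The medians of all genes in these comparisons lay between -0.02 and 0.00. The comparisons against control share 1 library, so their values are not independent of each other. The same holds for exercise alone over control and the combination over exercise alone, which share the exercise-alone library.

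Grouped by treatment, both irradiated libraries were above both unirradiated ones for 1 of 10 genes (TGFBR2) and below them for 4 of 10 (TGFB3, INHBA, TGFBR1 and LTBP2), where 26.2% and 27.5% of all genes were. Both exercised libraries were above both unexercised ones for 4 of 10 genes (TGFB1, TGFB2, TGFBI and SMAD7), where 11.6% of all genes were, and below them for 1 of 10 (SMAD3), where 13.2% were. For TGFB1, SMAD3, SMAD7 and LTBP2 the libraries on either side of the split were within counting error of each other.

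The comparison of exercise with and without radiation, which asks how the treatments combine, gave smaller or opposite values for most of the set when radiation was given. The log2 ratio of the combination to radiation alone was lower than that of exercise alone to control for 7 of 10 genes, beside 51.8% of all genes. The interval of the difference, a normal approximation from the 4 read counts, left out 0 for 7 of 10, beside 40.3% of all genes and 46.0% of those with a mean of at least 100 reads. INHBA had the largest difference: exercise over no exercise was -0.28 with radiation and 0.35 without, a difference of -0.63 (-0.98 to -0.28). For LTBP2 the values were -0.05 with radiation and 0.43 without, a difference of -0.48 (-0.66 to -0.30). TGFBR1 was at -0.01 with radiation and 0.34 without, a difference of -0.35 (-0.41 to -0.29). TGFBR2 went the other way, with 0.05 with radiation and -0.32 without, a difference of 0.38 (0.33 to 0.42), and was the only gene of the set whose exercise ratios were opposite in sign with both intervals leaving out 0. SMAD7 differed by -0.30 (-0.52 to -0.07) and TGFBI by -0.22 (-0.28 to -0.16), both with the exercise ratio above 0 in either setting, although the interval of SMAD7 with radiation included 0. TGFB1, TGFB2 and TGFB3 had intervals that included 0. A difference of at least 0.5 in size was present in 1 of 10 genes and in 16.7% of all genes, so differences of this size were not particular to the set, and counting intervals do not cover the spread between tumors.

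**Figure D3:**
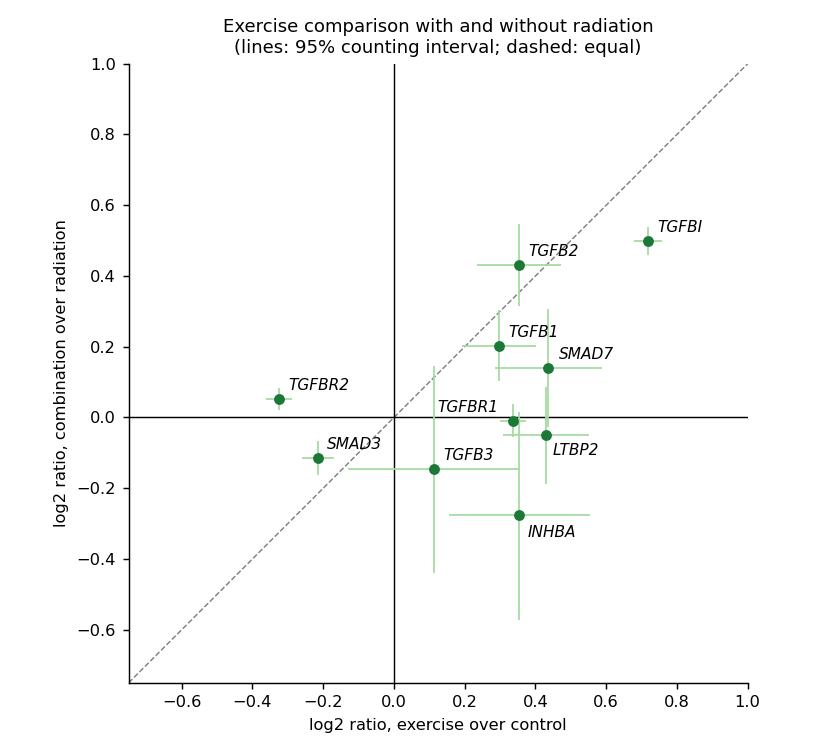
Exercise comparison of the 10 genes without radiation (horizontal axis, log2 ratio of exercise alone to control) and with radiation (vertical axis, log2 ratio of the combination to radiation alone); lines are 95% counting intervals and the dashed diagonal marks equal values. TGFB2 lies near the diagonal, INHBA at 0.35 and -0.28, and TGFBR2 alone at upper left.

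Genes that TGF-beta is known to induce, beside TGFBI, were listed separately, with earlier results of these data known, and 29 of 30 passed the minimum. CDKN2B, a cell cycle inhibitor, had 0 reads in every library, and A549 is known to lack this locus. With exercise alone, 25 of 29 targets were above control (50.4% of all genes) with a median log2 ratio of 0.40. Among them 5 of 29 reached 2-fold upward, beside 0.83% of all genes, and 0 of 29 downward, beside 0.696%. The 5 were ADAM19, a membrane metalloproteinase (2.54-fold, 2.32 to 2.79), COL4A2 (2.35-fold, 2.19 to 2.52), COL4A1 (2.02-fold, 1.79 to 2.28), COL5A1, a fibrillar collagen chain (2.04-fold, 1.96 to 2.13) and SNAI2, a repressor of epithelial genes (2.18-fold, 1.21 to 4.06). COL4A1 and COL4A2 share a promoter region and encode the main chains of basement membrane collagen, and SNAI2 rested on 38 reads with exercise alone and 18 in control. In the combination against control, the median was 0.20 with 19 of 29 above 0 (47.9% of all genes). COL1A1, a fibrillar collagen chain that is also in the fibroblast list, was at 0.497 of control (0.474 to 0.520). With radiation alone the median was -0.04 with 14 of 29 above 0 (50.1% of all genes), and 1 of 29 was 2-fold lower (0.897% of all genes), the sphingosine kinase SPHK1 (0.460, 0.337 to 0.621).

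Of the 5 targets at 2-fold with exercise alone, COL4A1, COL4A2, COL5A1 and ADAM19 were at or below control in the combination. ADAM19 had 17.4 CPM in the combination, 14.7 CPM with radiation alone, 45.3 CPM with exercise alone and 17.8 CPM in control. COL5A1 had 87.7 CPM in the combination, 89.1 CPM with radiation alone, 187 CPM with exercise alone and 91.8 CPM in control. For both genes the exercise-alone library stood apart from the other three. Against exercise alone, 5 of 29 targets were at least 2-fold lower in the combination (COL4A1, COL4A2, COL5A1, ADAM19 and SPHK1), beside 3.06% of all genes, and 0 of 29 higher, beside 2.92%, with a median of -0.13. This comparison uses the same exercise-alone library by which COL4A1, COL4A2, COL5A1 and ADAM19 were picked. Their lower values in it are therefore not independent of that choice. Against radiation alone the combination had a median of 0.18 with 22 of 29 above 0 (50.2% of all genes), and 0 targets at 2-fold (0.418% higher and 0.861% lower over all genes).

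**Figure D4:**
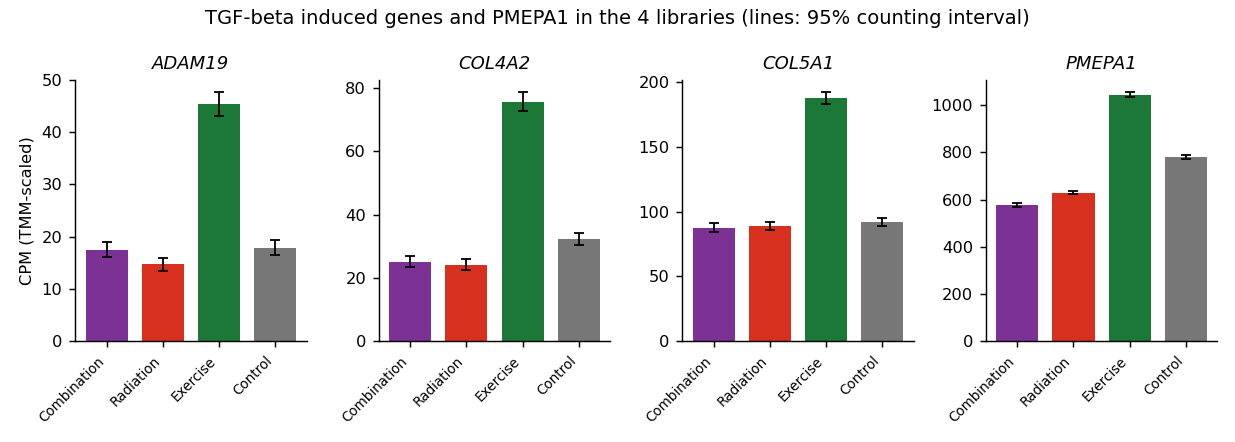
Level (CPM after TMM scaling, vertical axis from 0) of 3 TGF-beta induced genes and of PMEPA1 in the combination, radiation-alone, exercise-alone and control libraries; each bar is 1 library and lines are 95% counting intervals. All 4 genes are highest with exercise alone, with ADAM19 at 45.3 CPM and PMEPA1 at 1043 CPM. The 3 induced genes were among those picked at 2-fold in exercise alone over control.

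Of the rest of the intracellular machinery, 0 of 22 other SMADs and regulators were at 2-fold in any of the 5 comparisons. Over all genes, 0.418% to 3.06% were at 2-fold in a given direction, so a count of 0 is not particular to this list. The medians of the list lay between -0.14 and 0.02. The widest ratio was that of PMEPA1, a TGF-beta induced inhibitor that binds SMAD2 and SMAD3. It had 577 CPM in the combination, 630 CPM with radiation alone, 1043 CPM with exercise alone and 781 CPM in control, the same order as INHBA and TGFBR1. The 10 other receptors above the minimum likewise had 0 genes at 2-fold, beside the same shares of all genes, with medians between -0.18 and 0.00. BAMBI, a pseudoreceptor that competes with type I receptors, was 1.24-fold over control in the combination (1.20 to 1.28). Among 5 BMP targets above the minimum, ID1 and ID3, inhibitors of helix-loop-helix factors, were higher in both exercised libraries, as were 11.6% of all genes. ID2, HEY1 and ATOH8 were not, with log2 ratios of -0.20, -0.21 and 0.05 for exercise alone over control. ID1 had 84.5 CPM in the combination, 57.7 CPM with radiation alone, 83.8 CPM with exercise alone and 54.5 CPM in control.

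The medians of the other ligands lay between -0.10 and 0.17 over 14 genes. The highest was that of the combination over radiation alone, with 11 of 14 above 0, beside 50.2% of all genes. In the other comparisons 6 to 8 of 14 were above 0. GDF15, a distant member of the family and a p53 target, had 178 CPM in the combination, 139 CPM with radiation alone, 53.5 CPM with exercise alone and 40.3 CPM in control. Beside it, 9 of 10 p53 targets of a separate list were at least 2-fold higher than control in the combination (2.27% of all genes) and 9 of 10 with radiation alone (1.89%). LEFTY1, an inhibitor of nodal signalling, was below control in every treated library, at 0.426 of control in the combination (0.324 to 0.556), 0.407 with radiation alone (0.310 to 0.529) and 0.583 with exercise alone (0.459 to 0.737). BMP7 was 2.27-fold higher in the combination than with exercise alone (1.77 to 2.92), from 204 and 95 reads. MSTN was lower in the combination than in control, but from 10 and 28 reads.

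Among 19 genes of latency and activation, ITGB6, an integrin subunit that frees latent TGF-beta, had 9.77 CPM in the combination, 11.2 CPM with radiation alone, 23.5 CPM with exercise alone and 11.7 CPM in control. MMP9, a protease that can release the ligand, was also highest with exercise alone, with 19 reads in the combination, 19 with radiation alone, 78 with exercise alone and 36 in control. LTBP1, which ties latent TGF-beta to the matrix, had 865 CPM in the combination, 263 CPM with radiation alone, 161 CPM with exercise alone and 304 CPM in control. The neighboring noncoding gene LINC00486 had 809 CPM in the combination, 211 CPM with radiation alone, 111 CPM with exercise alone and 259 CPM in control. Both genes thus had the same order of libraries, and whether reads of 1 enter the count of the other was not tested. Of 8 extracellular antagonists, GREM1 and DCN were at least 2-fold lower in the combination than with exercise alone, beside 3.06% of all genes. GREM1 is a BMP antagonist, and DCN is a matrix proteoglycan that binds TGF-beta and is in the fibroblast list. GREM1 had 32 reads in the combination, 52 with radiation alone, 100 with exercise alone and 53 in control. DCN had few reads, with 18, 27, 40 and 49 in the same order. FSTL3, a secreted binder of activin, was higher in both irradiated libraries, with 428 CPM in the combination, 434 CPM with radiation alone, 340 CPM with exercise alone and 300 CPM in control.

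**Figure D5:**
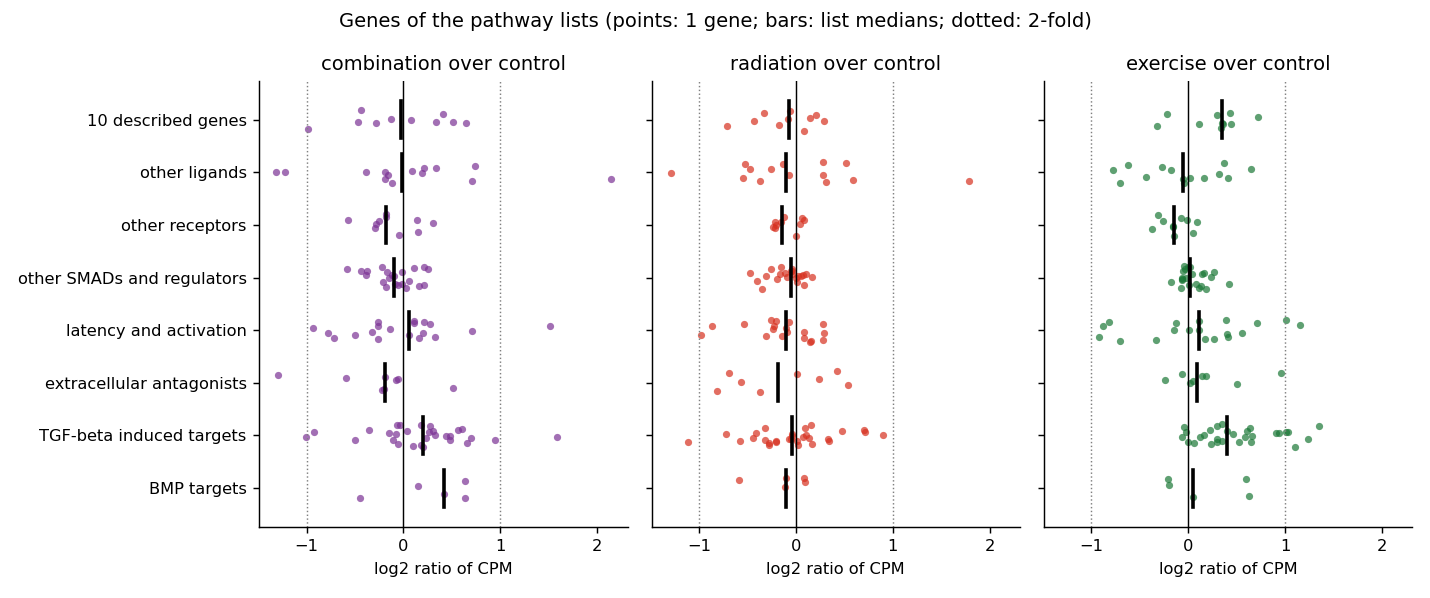
Log2 ratio of CPM (horizontal axis) to control of the genes of 8 lists in the combination, with radiation alone and with exercise alone; points are genes, bars are list medians and dotted lines mark 2-fold. With exercise alone the medians of the 10 genes (0.35) and of the TGF-beta induced targets (0.40) lie to the right of 0, while the other lists lie between -0.15 and 0.11.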

How the data were processed

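RNA of 4 A549 xenograft groups was measured, with 1 library per group, mapped to groups by the sample labels. PolyA-selected RNA was sequenced by the authors as stranded pairs of 100 nt. Per the submitters' processing notes, cutadapt, Bowtie2 2.3.4.1 (on GRCh38) and featureCounts 1.6.0 were used. Since Bowtie2 makes no spliced alignments, junction reads can be missing. The sources used here do not give the strand setting or how mouse reads were handled. The authors deposited raw counts per gene and FPKM. The length behind the deposited FPKM was the span of the gene with its introns for 9 of the 10 genes (within 1% of RefSeq), and 25.3% longer for INHBA.

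Counts were scaled by TMM (edgeR 4.0.16, R 4.3.3) on 19393 genes whose mean count was 20 or more. TMM factors were 0.980 in the combination, 0.982 with radiation alone, 1.01 with exercise alone and 1.03 in control. CPM ratios used a prior of 0.5 counts and a 2-fold threshold. Exonic lengths are unions of GENCODE exons, and loci, gene spans and promoter windows are from RefSeq. The software was python 3.11.15 with pandas 2.3.3, numpy 2.4.6, matplotlib 3.10.9 and scipy 1.17.1. With 1 library per group no p-value was computed, and the calling step was tested on simulated data.

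The genes and lists were chosen with earlier results of these data known. Named are the 10 genes in every library, and of each other list the genes at 2-fold in any of the 5 comparisons and the highest and lowest ratio of each comparison, beside LINC00486 and markers at 0. TGFB2-OT1, TGFB2-AS1 and INHBA-AS1 are named for their overlap, after their values were seen. Some genes under this rule are not reported here. Alternatives were median-of-ratios (DESeq2 1.42.0) and total-count scaling, a prior of 2 counts, no minimum and a minimum of 100, a 1.5-fold threshold, and FPKM with 0.1 added.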

Additional observations from a re-analysis of the deposited data

Results flagged for a closer look

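TGFBR2 drew attention because its exercise ratio had opposite signs with and without radiation, each beyond counting error. The log2 ratio was 0.05 for the combination over radiation alone (16862 and 17262 reads) and -0.32 for exercise alone over control (11227 and 14532 reads), a difference of 0.38. This difference was not tested, since each group had 1 library, and the ratio with radiation was a change of only 1.04-fold (1.02 to 1.06).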

How the results depend on the processing

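No paired analysis was possible because each group had 1 library, and for the same reason no library could be left out. With scaling by total counts, 1 of the 10 genes (INHBA) was at least 2-fold lower in the combination than in control, against 0 with TMM. At a 1.5-fold threshold, 1 gene was higher (TGFBI; 6.14% of all genes) and 1 lower (INHBA; 6.52%) in the combination against control, 1 higher (TGFBR2; 7.66%) and 3 lower (TGFB3, TGFBR1 and INHBA; 8.32%) in the combination against exercise alone, 1 lower (INHBA; 4.35%) with radiation alone against control and 1 higher (TGFBI; 3.85%) with exercise alone against control. Of the 50 log2 ratios of these genes, 1 changed sign under median-of-ratios scaling, TGFBR1 in the combination over radiation alone, from a value within counting error of 0. Total-count scaling moved 10 of 50 outside their counting interval, by at most 0.08, and FPKM with 0.1 added moved 15 of 50, by at most 0.28, with 0 sign changes in either. A prior of 2 counts and the other minimum counts moved 0 of 50 outside the interval. Total-count scaling shifted the median of all genes by at most 0.09 from 0 in any comparison. Depth limits TGFB3 and INHBA most, with 174 to 465 reads, and the missing replicates limit every ratio.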
